A study of Mus musculus with 8 samples.

Results

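The angiogenic ligands and receptors are 10 genes of blood vessel growth, chosen by name: the ligands Vegfa, Pgf, Angpt1, Angpt2 and Apln, and the receptors and coreceptor Kdr, Flt1, Tek, Tie1 and Nrp1. All 10 were found in both deposited tables, which list 54532 and 28229 genes, and all 10 passed the filter on low counts in each comparison. The study asked how a cortical stroke followed by restraint stress changes gene expression in the mouse brain, and how an inhibitor of the histone deacetylase HDAC3 alters it. Total RNA of 8 brain libraries from C57BL/6 mice (male, by the study's methods), all taken at day 21, was sequenced, with 2 libraries in each of 4 groups. The PTS + RS group had a photothrombotic stroke, in which light on a circulating dye closes cortical vessels, plus restraint stress (a few hours a day in a narrow tube), and its tissue was labelled cortex. The RS group had restraint stress without the stroke, and its tissue was also labelled cortex. The HDAC3 inhibitor group had stroke and restraint stress and received RGFP109 under the skin once a day at 60 mg/kg. The study describes RGFP109 as selective for both HDAC1 and HDAC3. The NaCl group, its control, had stroke and restraint stress and is labelled by NaCl treatment. By the study's design, all 4 of these libraries thus came from mice with both the stroke and the stress. In the HDAC3 inhibitor group and the NaCl group, replicate 1 was labelled cortex and replicate 2 was labelled amygdala. Neither a sham group nor a group with stroke alone was among the libraries analysed here, and every group was restrained. No label says which animals the libraries came from or whether animals were pooled, so p-values measure the spread between these libraries.

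Vascular endothelial growth factor A (Vegfa) is made by astrocytes, neurons and other cells of the tissue and is induced by low oxygen. It acts on endothelial cells through the receptor tyrosine kinase Kdr (VEGFR2), while Flt1 (VEGFR1) binds the same ligand tightly and signals weakly, placental growth factor (Pgf) binds Flt1, and Nrp1 is a coreceptor that neurons also use to read semaphorins. Angpt1, made by cells around the vessel, activates the endothelial receptor Tek (Tie2) and steadies the vessel wall, Angpt2 is made by the endothelium and can oppose it, Tie1 modulates Tek, and apelin (Apln) marks the tips of growing vessels and acts through Aplnr.

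Before any comparison, the labelled tissue was checked against marker genes, as the sum of their CPM (counts scaled to the size of the library, with the normalisation of each table). Genes of the hippocampus summed to between 367 and 594 CPM in the 4 PTS + RS and RS libraries and to 449 CPM in HDAC3 inhibitor replicate 1, all labelled cortex, against 31.2 to 50.7 CPM in the other 3 libraries; this list was added after values were seen. NaCl replicate 1, also labelled cortex, held 1433 CPM of olfactory bulb genes, against 13.3 to 23.3 CPM in the other 7 libraries. The 2 libraries labelled amygdala held 991 and 1133 CPM of striatum genes, against 76.4 to 199.9 CPM elsewhere, and more of the cerebral cortex list (1469 and 1255 CPM) than any library labelled cortex (614 to 792 CPM). Amygdala genes summed to 282 CPM in each of these 2 libraries, above the 172 to 198 CPM of 5 libraries labelled cortex, and to 1011 CPM in NaCl replicate 1. These differences rested largely on single genes of the list. Meis2 was at 144 and 148 CPM in the 2 libraries and at 43.2 to 62.2 CPM in the 5. In NaCl replicate 1 Meis2 was at 628 CPM and Tshz1 at 340 CPM. Choroid plexus genes were at 46.8 CPM in PTS + RS replicate 2 and at 1643 CPM in PTS + RS replicate 1. Libraries under the same tissue label thus differed in region genes, and the groups below are called by their labels. Defining endothelial genes were present in every library, the endothelial list summing to between 376 and 481 CPM. Library totals ran from 15902013 to 21712033 counts, with 3.59% to 4.55% of them on mitochondrial genes. At this depth Flt1 had 1151 to 1418 counts a library, whereas Angpt2 had 26 to 67 and Pgf 28 to 71, so the last 2 were measured with the least precision.

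**Figure D1:**
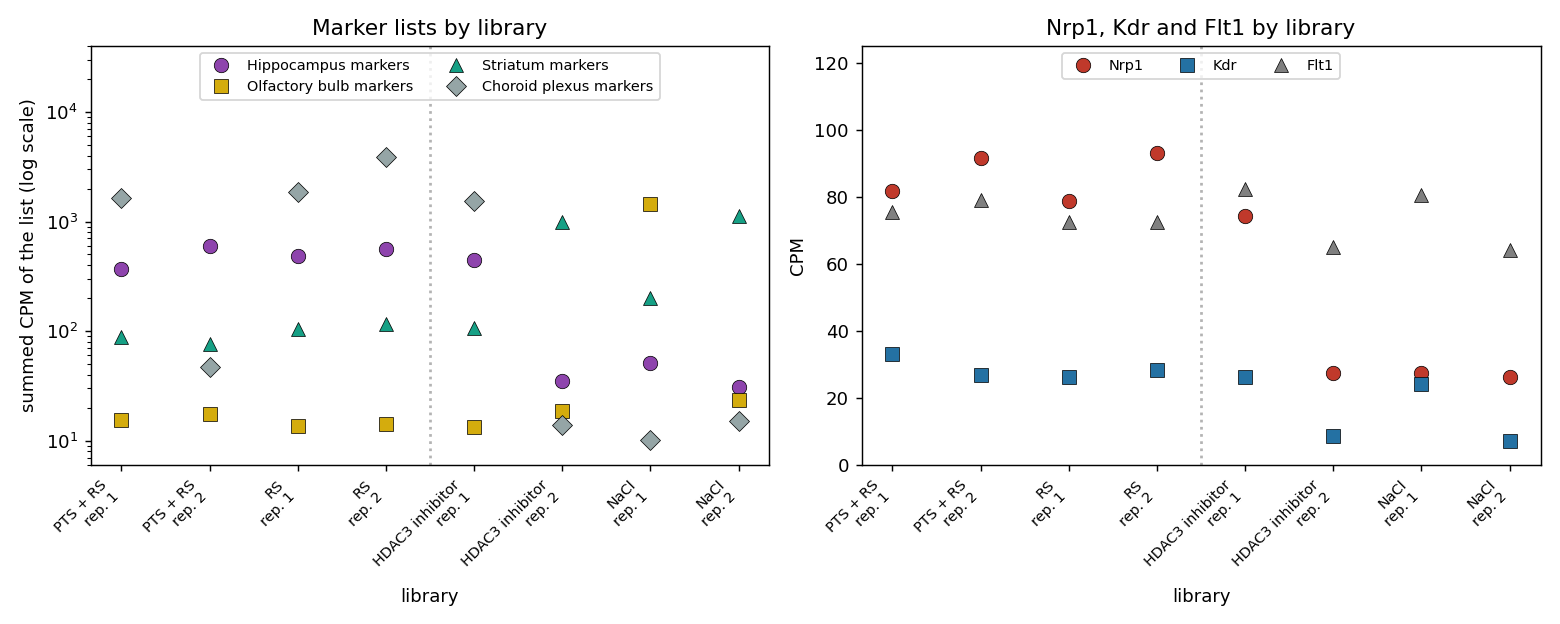
Left, summed CPM of 4 region marker lists in each library on a log scale; right, CPM of Nrp1, Kdr and Flt1 in the same libraries, with a dotted line between the tables, which were normalised separately. Nrp1 lies between 74.3 and 93.0 CPM in the 5 libraries with hippocampus genes and between 26.2 and 27.5 CPM in the other 3, and Kdr is lowest in the 2 libraries labelled amygdala.

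The promoters of 3 members are shown because the comparisons below turn on their transcripts: Vegfa, the 1 member past the threshold after stroke, Kdr, the member that differed most between the labelled tissues, and its sister receptor Flt1, which varied little. Each is the 250 bases before the first listed RefSeq start on GRCm38.p6, written 5' to 3' on the gene's minus strand. The Vegfa stretch is chr17:46032378-46032627, that of Kdr is chr5:75978456-75978705 and that of Flt1 is chr5:147726012-147726261. Capitals mark the hypoxia response core (ACGTG or GCGTG), the ETS site (CCGGAA or AGGAAG) and the GC box (GGGCGG), searched on both strands together with the TATA box (TATAAA), which is left in lower case.
Vegfa: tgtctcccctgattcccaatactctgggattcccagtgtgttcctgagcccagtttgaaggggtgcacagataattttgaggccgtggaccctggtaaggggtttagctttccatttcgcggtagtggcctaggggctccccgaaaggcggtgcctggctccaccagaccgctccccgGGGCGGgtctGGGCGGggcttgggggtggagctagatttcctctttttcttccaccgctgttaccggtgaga
Kdr: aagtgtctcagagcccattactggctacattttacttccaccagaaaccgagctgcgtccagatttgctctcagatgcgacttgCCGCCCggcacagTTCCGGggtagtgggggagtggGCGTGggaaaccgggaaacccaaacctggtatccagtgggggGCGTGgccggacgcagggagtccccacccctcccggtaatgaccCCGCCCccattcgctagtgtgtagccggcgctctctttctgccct
Flt1: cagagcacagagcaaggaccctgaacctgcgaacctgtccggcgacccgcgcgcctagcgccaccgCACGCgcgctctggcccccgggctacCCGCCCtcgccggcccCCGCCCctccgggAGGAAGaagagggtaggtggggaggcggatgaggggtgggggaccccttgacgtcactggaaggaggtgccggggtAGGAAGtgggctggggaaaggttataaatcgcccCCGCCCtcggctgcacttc
The Vegfa stretch held 2 GC boxes and none of the other motifs, whereas a second RefSeq promoter of Vegfa, chr17:46025164-46025413, held 2 hypoxia cores and 1 GC box. The Kdr stretch held 2 hypoxia cores, 1 ETS site and 2 GC boxes, and the Flt1 stretch held 1, 2 and 3 of them and 1 TATA box. RefSeq promoters were matched for 8 of the 10 genes, and counting the first promoter of each there was a hypoxia core in 4, an ETS site in 5, a GC box in 6 and a TATA box in 1 of the 8, against 38.6%, 38.2%, 32.7% and 12.4% of 32851 mouse promoters of the same length. The mouse shares count every listed promoter of a gene and not only the first, so the 2 sets are not alike. These are matches of letters and not shown binding sites.

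Compared per length, as the deposited FPKM (fragments scaled for gene length and depth), the 10 genes kept a wide and partly fixed order. Vegfa (chr17:46016993-46032369, minus strand) was the highest in all 4 groups, with group means of 16.3 to 21.7 FPKM. Angpt2 (chr8:18690263-18741562, minus strand) was the lowest in all 4, with means of 0.508 to 0.708 FPKM. Nrp1 was the second in PTS + RS and RS, at 8.80 FPKM ± 0.722 and 8.74 FPKM ± 1.04 (SD, n = 2), but the fourth in the HDAC3 inhibitor group at 5.20 FPKM ± 3.37 and the fifth in NaCl at 2.72 FPKM ± 0.0834. Apln and Flt1 were neighbours in every group, at means of 5.23 to 5.97 and 5.32 to 5.68 FPKM, and these means did not differ beyond the spread between libraries. In the HDAC3 inhibitor and NaCl groups their order followed the tissue label. Apln was at 6.41 and 6.02 FPKM against 4.82 and 4.74 for Flt1 in the amygdala-labelled libraries. In the cortex-labelled libraries it was at 5.53 and 5.71 FPKM against 6.10 and 5.90. In the PTS + RS and RS libraries Tek was above Kdr, and Kdr and Tie1 lay within their spread of each other (3.29 FPKM ± 0.483 and 3.32 FPKM ± 0.547 in PTS + RS). Pgf and Angpt1 lay between 0.782 and 2.00 FPKM as group means. Over all 8 libraries Kdr varied most, its highest CPM being 4.54 times its lowest, and Apln and Flt1 least, at 1.27 and 1.28 times.

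**Figure D2:**
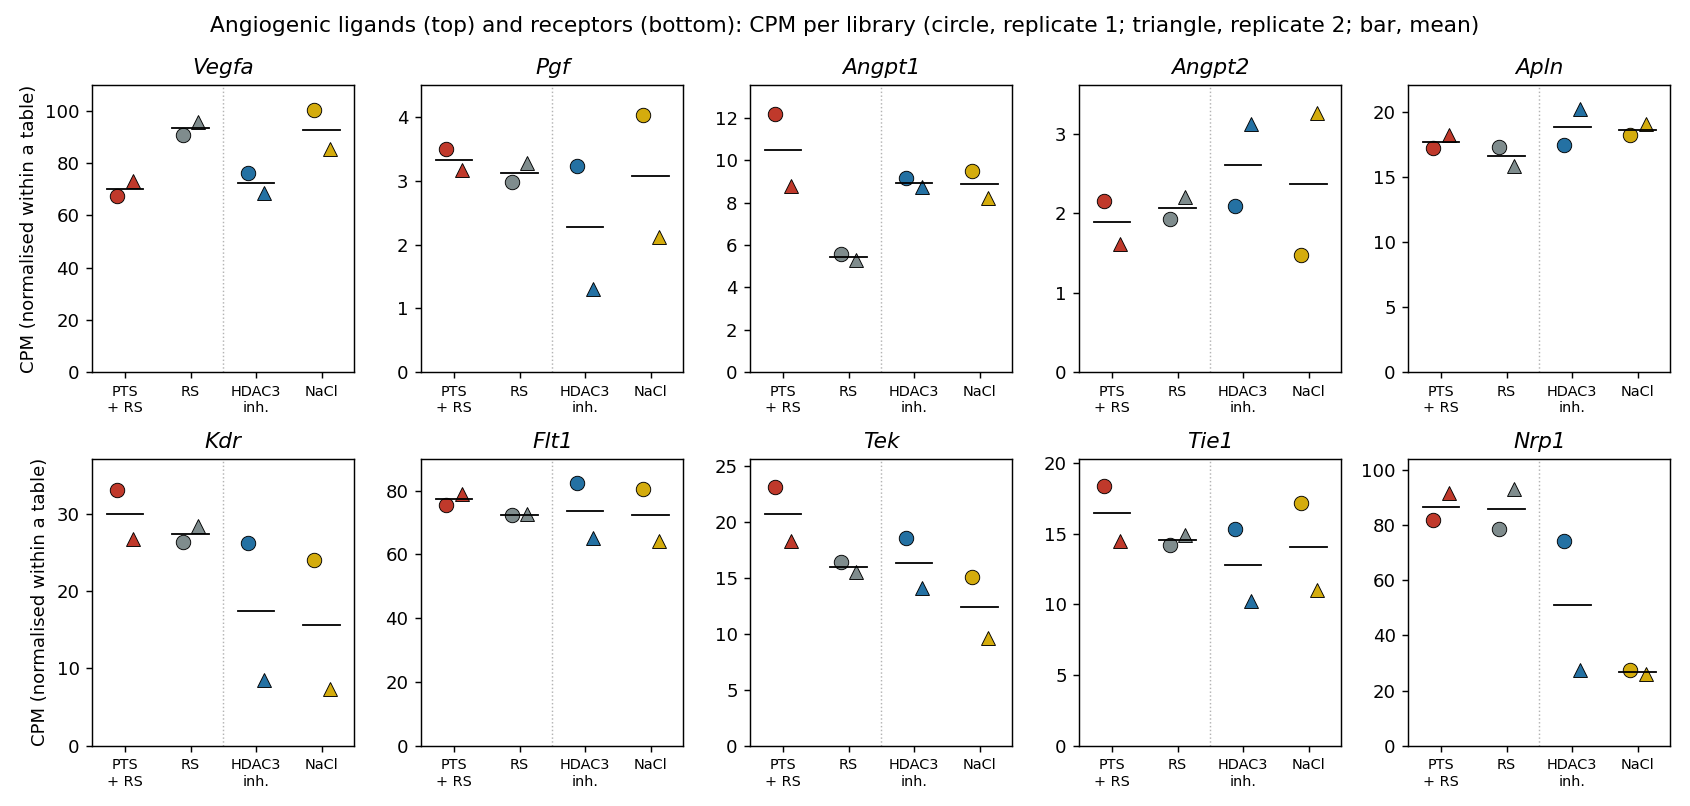
CPM of each of the 10 genes in each library, ligands above and receptors below, with a circle for replicate 1, a triangle for replicate 2 and a bar for the mean of 2; the dotted line separates the tables, which were normalised separately. Vegfa is lower in both PTS + RS libraries than in both RS libraries, Angpt1 is higher, and Kdr and Nrp1 split the replicates of the HDAC3 inhibitor group.

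The first comparison, PTS + RS against RS, gives the difference that the stroke adds to restraint stress. Vegfa was the 1 member past the threshold and was lower after stroke, at 0.753 of its RS level. Angpt1 was nearly doubled in the fitted values but missed the threshold, as did its receptor Tek. The remaining 7 genes had fitted log2 fold changes from -0.13 to 0.18, but the intervals of Pgf and Angpt2 were wide. Genes were tested with edgeR's quasi-likelihood test, adjusted by the Benjamini-Hochberg method over 17581 genes, with an adjusted p under 0.05 as the threshold. The 1 member called, of 10, stands beside 624 genes called of 17581, or 3.55% (2.96% higher and 0.586% lower). Libraries of the groups did not overlap for 4 members (3 higher and 1 lower), against 50.2% of all genes tested (25.7% higher and 24.5% lower), so that separation was as common among genes at large. At an unadjusted p under 0.05 there were 2 members higher (Angpt1 and Tek), beside 10.3% of all genes, and 1 lower, beside 7.55%. The median log2 fold change of the members was 0.09, beside -0.0015 for all genes tested.

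Vegfa was at 67.5 and 73.1 CPM in the PTS + RS libraries and at 90.8 and 95.8 CPM in the RS libraries. Both PTS + RS libraries were below both RS libraries. The log2 fold change was -0.41 (SE 0.081, 95% interval -0.60 to -0.22), with an adjusted p of 0.0453 in edgeR's quasi-likelihood test. The adjusted p was 0.0367 with DESeq2 and 0.0552 with limma-voom, the study's own package, and with edgeR's test it was 0.349 in 1 fit of all 8 libraries, 0.172 without RS replicate 1 and 0.369 without RS replicate 2, in which case the lone library is taken to vary like the others. The direction held in all of these, with log2 fold changes from -0.47 to -0.35 when 1 library was left out. Without PTS + RS replicate 2, the library nearly free of choroid plexus genes, the log2 fold change was -0.47.

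Neither ligand of Tek passed the threshold in edgeR's quasi-likelihood test. Angpt1 (chr15:42424723-42676977, minus strand) was at 12.2 and 8.80 CPM in PTS + RS and at 5.57 and 5.30 CPM in RS. Both stroke libraries were higher, and they also differed from each other more than the RS libraries did. The log2 fold change was 0.95 (SE 0.216, interval 0.44 to 1.46), with an adjusted p of 0.0664. DESeq2 placed it past the threshold (adjusted p = 0.0455). In edgeR's fits the log2 fold change of Angpt1 ran from 0.69 to 1.16 when 1 library was left out. Angpt2, the antagonist, was at 2.16 and 1.62 CPM in PTS + RS and at 1.93 and 2.21 CPM in RS, with overlapping libraries and an interval of -0.90 to 0.64 around its log2 fold change of -0.13. Angpt2 lies inside Mcph1 on the other strand, Angpt1 overlaps an antisense gene, Gm17473, with at most 5 counts in these 4 libraries, and whether counting used the strand is not given in the sources used here.

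Tek (chr4:94739289-94874976, plus strand), the angiopoietin receptor, was at 23.1 and 18.3 CPM in PTS + RS and at 16.4 and 15.5 CPM in RS. The libraries did not overlap, and PTS + RS replicate 1 was the highest of the 4. Its log2 fold change was 0.37 (SE 0.152, interval 0.02 to 0.73), with an unadjusted p of 0.0432 and an adjusted p of 0.261 in edgeR's quasi-likelihood test. When 1 library was left out, the log2 fold change of Tek ran from 0.19 to 0.53. The orphan relative Tie1 (chr4:118471191-118490061, minus strand) was at 18.4 and 14.5 CPM against 14.2 and 14.9 CPM, so that its groups overlapped, with a log2 fold change of 0.18 (interval -0.20 to 0.56).

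The VEGF receptors differed little. Flt1 (chr5:147561604-147726011, minus strand), the decoy-like receptor, was at 75.5 and 78.9 CPM in PTS + RS and at 72.4 and 72.6 CPM in RS. The groups did not overlap, but the log2 fold change was 0.09 (interval -0.09 to 0.27). Kdr (chr5:75932827-75978458, minus strand), the main signalling receptor, was at 33.1 and 26.7 CPM against 26.3 and 28.5 CPM, overlapping, with a log2 fold change of 0.13 (interval -0.18 to 0.44). The coreceptor Nrp1 (chr8:128358604-128503363, plus strand) was at 81.8 and 91.5 CPM against 78.7 and 93.0 CPM, overlapping, with a log2 fold change of 0.01 (interval -0.23 to 0.26). Log2 fold changes beyond 0.27 in either direction lay outside the intervals of Flt1 and Nrp1.

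The remaining ligands also overlapped. Pgf (chr12:85166635-85177790, minus strand), the Flt1 ligand, was at 3.50 and 3.17 CPM in PTS + RS and at 2.98 and 3.28 CPM in RS, with a log2 fold change of 0.09 and an interval of -0.50 to 0.69. Apln (chrX:48025146-48034853, minus strand), the tip cell ligand, was at 17.2 and 18.2 CPM against 17.3 and 15.8 CPM, with a log2 fold change of 0.09 (interval -0.21 to 0.40).

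**Figure D3:**
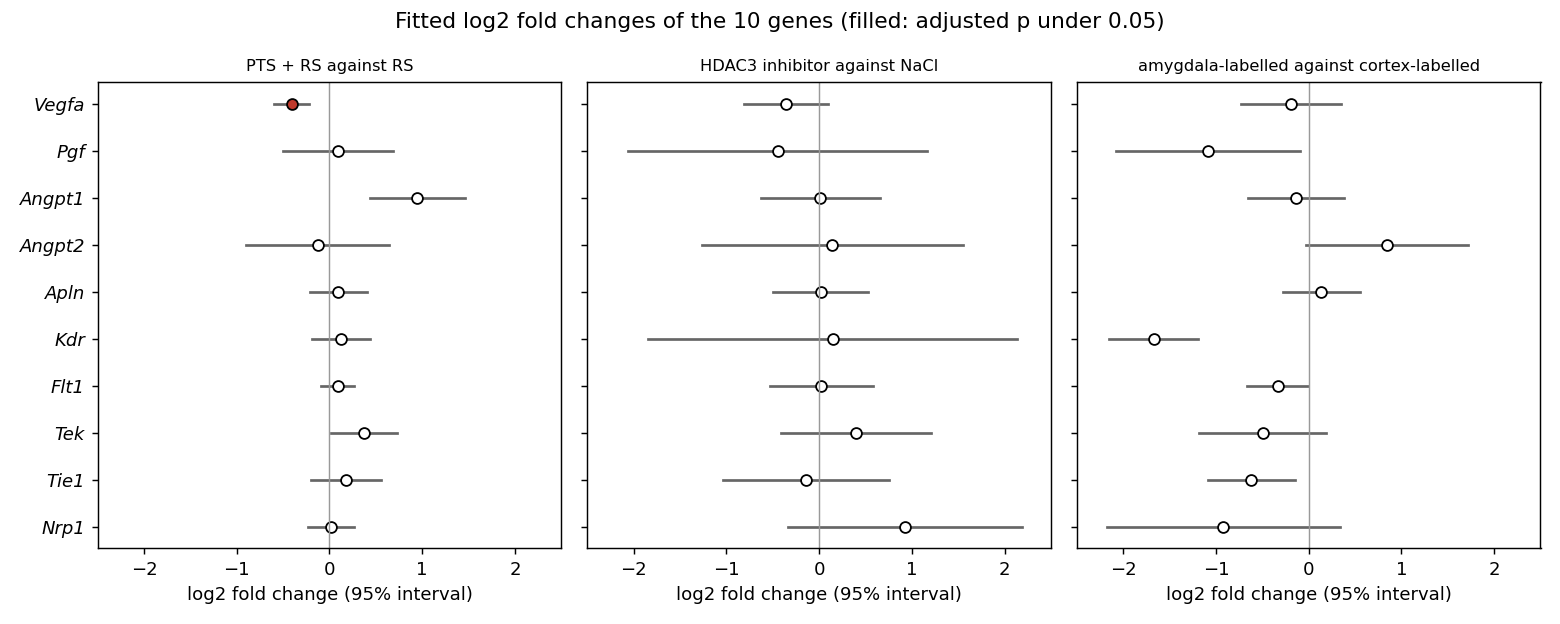
Fitted log2 fold change of each of the 10 genes with its 95% interval in the 3 comparisons, filled where the adjusted p was under 0.05. Vegfa at -0.41 after stroke is the 1 filled point, and Kdr at -1.67 lies farthest from 0 between the labelled tissues.

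Of the rest of the VEGF, angiopoietin and apelin pathway, 19 of 22 listed names were tested, 13 with higher and 6 with lower fitted values, a median log2 fold change of 0.16, and 1 past the threshold. That gene was Aplnr, the apelin receptor, at 4.26 and 2.39 CPM in PTS + RS and at 0.883 and 0.694 CPM in RS. Both stroke libraries were above both RS libraries, and the log2 fold change was 2.06 (SE 0.416, adjusted p = 0.0473 in edgeR's quasi-likelihood test). The call was lost with limma-voom (adjusted p = 0.0809) and without PTS + RS replicate 1, RS replicate 1 or RS replicate 2 (0.0635, 0.0761 and 0.129), so Aplnr rose on low counts while its ligand Apln stayed within the spread of its libraries.

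Tip cell and Notch genes, which mark sprouting vessels, had 6 of 14 higher, a median of -0.06 and 0 past the threshold in edgeR's quasi-likelihood test, with 2 higher and 0 lower at an unadjusted p under 0.05. The extremes were the chemokine receptor Cxcr4, at 7.35 and 5.45 CPM against 2.54 and 3.15 CPM (log2 fold change 1.17, adjusted p = 0.0619), and the fenestration protein Plvap at -0.49. Among 16 hypoxia response genes, Pfkfb3, a regulator of glycolysis, rose (55.2 and 62.3 CPM against 37.7 and 41.8 CPM, log2 fold change 0.56, adjusted p = 0.0349), and Higd1a, a mitochondrial protein, fell (36.2 and 40.9 CPM against 57.6 and 56.0 CPM, log2 fold change -0.56, adjusted p = 0.0291). Both calls were lost without RS replicate 1 (adjusted p = 0.215 and 0.143 in edgeR's quasi-likelihood test) or RS replicate 2 (0.0747 and 0.108). The list as a whole had a median of 0.02, so that Vegfa, itself a hypoxia target, stood beside targets that went both ways. Of 15 endothelial transcription factors, Elk3, an ETS factor, rose from 8.22 and 7.95 CPM to 17.5 and 17.1 CPM (log2 fold change 1.09, adjusted p = 0.00937), and the list's median was 0.12. Elk3 stayed past the threshold without any 1 of the 4 libraries, with log2 fold changes from 1.07 to 1.11.

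The cells that carry the receptors were compared through their markers, because in bulk tissue fewer cells of a type and less RNA per cell cannot be told apart. Of 15 endothelial markers 12 had higher and 3 lower fitted values, with a median log2 fold change of 0.22 and 0 past the threshold in edgeR's quasi-likelihood test, and 2 higher and 1 lower at an unadjusted p under 0.05. They ran from the tight junction gene Ocln at -0.57 to the efflux pump Abcb1a at 0.44 (40.4 and 40.2 CPM against 31.1 and 28.1 CPM). Of 10 pericyte and smooth muscle markers tested, the pericyte gene Rgs5 rose (log2 fold change 0.49, adjusted p = 0.0271, and 0.112 or 0.239 without RS replicate 1 or 2) and the median was 0.12. Other cell types moved more. All 10 microglia markers rose, with a median of 2.03 and a sum of 1197 and 1007 CPM in PTS + RS against 294 and 266 CPM in RS, led by the lysosomal gene Cd68 (63.0 and 56.5 CPM against 7.78 and 7.13 CPM). Of 10 astrocyte markers 5 rose (Gfap, Aqp4, S100b, Slc1a3 and Gja1, the first 3 of them also without either RS library), with a median of 0.48 and sums of 7927 and 6731 CPM against 4558 and 4592 CPM, while Vegfa, which astrocytes make, was lower. Neuron markers had a median of -0.11 and oligodendrocyte markers 0.22, with 0 past the threshold in either list, and 1 lower and 2 higher at an unadjusted p under 0.05. Choroid plexus markers had a median of -1.71 with 0 past the threshold and 2 lower at an unadjusted p under 0.05, but this rests on single libraries, being -5.60 with 8 lower past the threshold without PTS + RS replicate 1 and -0.83 with 1 lower without PTS + RS replicate 2. With no filter on low counts 8 were past the threshold. Meningeal fibroblast and blood cell markers had medians of -0.06 and -0.03. Of the region lists 1 gene was past the threshold, the striatal gene Ppp1r1b, lower at -0.78 (adjusted p = 0.0475, and 0.186 without RS replicate 2), and medians lay between -0.18 for hippocampus and 0.04 for amygdala markers, with cortex at 0.03, striatum at -0.09 and olfactory bulb at -0.01. The part of these cell types in the values of Vegfa, Angpt1 and Tek was not tested.

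**Figure D4:**
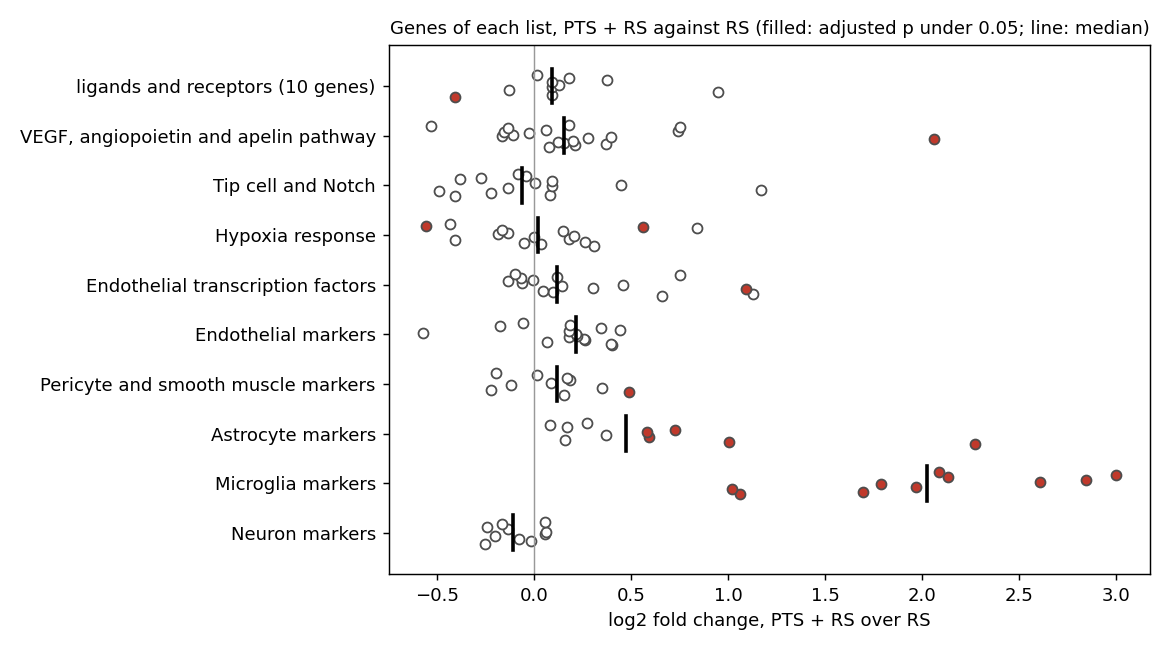
Fitted log2 fold change, PTS + RS over RS, of each gene tested in 10 lists, with a bar at the list's median and filled points where the adjusted p was under 0.05. The 10 ligands and receptors lie around a median of 0.09 with 1 filled point, and the 10 microglia markers are all filled around 2.03.

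The second comparison, the HDAC3 inhibitor against NaCl, asks how the inhibitor alters brain tissue of mice with stroke and stress. Microglia markers summed to 344 and 473 CPM with the inhibitor and to 270 and 512 CPM with NaCl. In the other table, normalised separately, they summed to 1197 and 1007 CPM in PTS + RS and to 294 and 266 CPM in RS. How much lesioned tissue each library held was not tested. None of the 10 genes was past the threshold, and none of all 17565 genes tested (0%) was either in edgeR's quasi-likelihood test. At an unadjusted p under 0.05 there were 0 members, beside 88 genes higher (0.501%) and 118 lower (0.672%) over the table. DESeq2 and limma-voom also called 0 genes. The groups mix the tissue labels, with a common coefficient of biological variation of 32.1%, against 11.4% in the first comparison, and the intervals were wide. The 1 member whose libraries did not overlap was Vegfa, against 26.6% of all genes tested. The median log2 fold change of the members was 0.02, beside -0.02 for all genes.

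Vegfa was at 76.0 and 68.7 CPM with the HDAC3 inhibitor and at 100.2 and 85.5 CPM with NaCl, the first value of each pair labelled cortex and the second amygdala. Both inhibitor libraries were lower than both NaCl libraries. The log2 fold change was -0.36 (SE 0.174, interval -0.81 to 0.09), and the log2 ratio within each label, which has no replicate, was -0.40 in the cortex-labelled pair and -0.31 in the amygdala-labelled pair. Of all genes, 44.5% and 25.2% had a ratio larger in size than that of Vegfa in these pairs. With 2 libraries a group and a fitted interval that includes 0, the difference was not detectable over the spread between libraries. The fit had no term for the tissue label, so that spread includes the difference between the labels. With the replicate number, here also the label, as a block, 0 genes were past the threshold in edgeR's quasi-likelihood test.

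Nrp1 was at 74.3 and 27.5 CPM with the HDAC3 inhibitor and at 27.5 and 26.2 CPM with NaCl. HDAC3 inhibitor replicate 1 stood apart from the other 3, which were nearly equal. The log2 fold change of 0.92 (interval -0.34 to 2.18) therefore rests on that library, which held 449 CPM of hippocampus genes against 50.7 CPM in NaCl replicate 1, its partner in the cortex label, and without it the value was 0.04. The log2 ratio was 1.43 within the cortex-labelled pair and 0.07 within the amygdala-labelled pair. The part of the sampled region in this difference was not tested.

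Kdr was at 26.3 and 8.51 CPM with the HDAC3 inhibitor and at 24.1 and 7.29 CPM with NaCl. It split by tissue label and hardly by treatment, with log2 ratios of 0.13 and 0.22 within the labels. Flt1 was at 82.5 and 65.1 CPM against 80.7 and 64.3 CPM, and its ratios within the labels were 0.03 and 0.02. Tek was at 18.6 and 14.2 CPM against 15.1 and 9.68 CPM. Within each label the inhibitor library had the higher Tek value, by 0.30 and 0.54 on the log2 scale, but the groups overlapped. Of all genes, 54.3% and 11.2% had a ratio larger in size than that of Tek in the cortex-labelled and amygdala-labelled pairs. In the fit, which had no term for the label, the log2 fold change of Tek was 0.40 (interval -0.41 to 1.21). Tie1 was at 15.3 and 10.2 CPM against 17.2 and 11.0 CPM, with log2 ratios of -0.16 and -0.10.

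Among the ligands, Pgf was at 3.23 and 1.31 CPM with the HDAC3 inhibitor and at 4.04 and 2.12 CPM with NaCl. Both pairs were lower with the inhibitor, by log2 ratios of -0.31 and -0.65, on 28 to 71 counts a library. Of all genes, 53.1% and 7.85% had a ratio larger in size than that of Pgf in the cortex-labelled and amygdala-labelled pairs. Angpt1 was at 9.13 and 8.74 CPM against 9.50 and 8.21 CPM, and Apln at 17.4 and 20.2 CPM against 18.2 and 19.0 CPM. For both, the fitted log2 fold change was within 0.02 of 0, with intervals of -0.63 to 0.65 and -0.49 to 0.53. Angpt2 was at 2.09 and 3.13 CPM against 1.48 and 3.26 CPM.

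The vascular lists gave 0 calls in this comparison in edgeR's quasi-likelihood test. Medians were -0.05 for 18 genes of the rest of the pathway (1 higher and 1 lower at an unadjusted p under 0.05), -0.12 for tip cell and Notch genes, -0.08 for hypoxia response genes, -0.20 for endothelial transcription factors, -0.02 for endothelial markers and 0.19 for pericyte and smooth muscle markers, the last 5 with 0 at an unadjusted p under 0.05. The highest gene of the pathway was the lymphatic growth factor Vegfd, at 5.71 and 3.65 CPM with the inhibitor against 0.512 and 1.85 CPM (log2 fold change 1.97, interval 0.16 to 3.79), and the lowest was the angiogenesis inhibitor Thbs2 at -0.87. The extremes of the other lists were Hey2, a Notch target, at -2.34 and Esm1 at 0.61, Egln3 at -1.73 and Pdk1 at 0.45, Klf4 at -0.42 and Ets2 at 0.48, Cldn5 at -0.47 and Vwf at 0.52, and Anpep at -0.38 and Cspg4 at 0.33. Hey2 was at 35.7 CPM in NaCl replicate 1, the library with olfactory bulb genes, and at 3.81 to 3.93 CPM in the other 3. The lists that differed most were those of regions, choroid plexus markers with a median of 3.51, hippocampus markers with 2.73 and olfactory bulb markers with -5.23. Astrocyte, microglia, neuron and oligodendrocyte markers had medians of 0.09, 0.12, 0.11 and -0.07, and meningeal fibroblast, blood cell, cortex, amygdala and striatum markers had medians of -0.44, -1.78, 0.33, 0.002 and -0.22.

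The third comparison sets the 2 libraries labelled amygdala against the 2 labelled cortex of the same table, 1 of each treatment on either side. Here the members differed more than in the treatment comparison. The libraries did not overlap for 9 of the 10 genes, 2 higher and 7 lower in the amygdala-labelled libraries, against 44% of all genes tested, and the median of the members was -0.42, beside -0.03 for all genes. None of the 10 and none of 17565 genes (0%) was past the threshold in edgeR's quasi-likelihood test or with limma-voom, while 4 members, all lower, had an unadjusted p under 0.05, beside 1197 genes higher (6.81%) and 773 lower (4.4%). DESeq2 called 314 genes higher and 102 lower. The 2 sides also differ in the region genes given above, so tissue, dissection and region genes cannot be told apart.

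Kdr was at 8.51 and 7.29 CPM in the amygdala-labelled libraries and at 26.3 and 24.1 CPM in the cortex-labelled libraries. The amygdala-labelled values were 0.314 of the others, and the libraries of a label were close to each other whatever the treatment. The log2 fold change was -1.67 (SE 0.184, interval -2.15 to -1.19), with an unadjusted p of 0.000357 and an adjusted p of 0.201 in edgeR's quasi-likelihood test. The adjusted p was 2.87e-06 with DESeq2 and 0.0121 in 1 fit of all 8 libraries. Without NaCl replicate 1, the library with olfactory bulb genes, the log2 fold change was -1.72. Without HDAC3 inhibitor replicate 1, the library with hippocampus genes, it was -1.60. Over all fits that left out 1 library it ran from -1.78 to -1.55, each fit having 1 library on one side.

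The other receptors had lower values too, by less. Flt1 was at 65.1 and 64.3 CPM against 82.5 and 80.7 CPM, a log2 fold change of -0.33 (interval -0.66 to -0.01). Tie1 was at 10.2 and 11.0 CPM against 15.3 and 17.2 CPM, a log2 fold change of -0.62 (interval -1.09 to -0.14). Both receptors separated the labels with no overlap. Tek had a log2 fold change of -0.50 (interval -1.18 to 0.19), and Nrp1 one of -0.92 (interval -2.18 to 0.33), the latter moving from -0.03 to -1.45 according to which library was left out. The interval of Kdr, up to -1.19, lay below those of Tie1, from -1.09, and Flt1, from -0.66, and the difference between these genes was not itself tested.

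Among the ligands, Pgf was at 1.31 and 2.12 CPM against 3.23 and 4.04 CPM (log2 fold change -1.09, interval -2.08 to -0.10), and Angpt2 was at 3.13 and 3.26 CPM against 2.09 and 1.48 CPM (log2 fold change 0.84, interval -0.03 to 1.71). The labels did not overlap for either gene, but neither passed the threshold. Angpt1 and Apln did not overlap either and differed by -0.14 and 0.14 on the log2 scale, with intervals that include 0, and Vegfa overlapped, with a log2 fold change of -0.19. When 1 library was left out, the log2 fold change ran from -1.45 to -0.77 for Pgf and from 0.62 to 1.11 for Angpt2. For Tie1 it ran from -0.69 to -0.52, for Tek from -0.79 to -0.23 and for Vegfa from -0.37 to 0.03.

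Endothelial markers as a list differed less than Kdr between the labels. Of 15, 5 were higher and 10 lower, with a median of -0.26, a range from Vwf at -0.68 to Mfsd2a at 0.64, and 0 past the threshold in edgeR's quasi-likelihood test (0 higher and 1 lower at an unadjusted p under 0.05). Pan-endothelial Pecam1 was at 21.8 and 21.3 CPM in the amygdala-labelled libraries and at 21.4 and 19.1 CPM in the cortex-labelled ones. Cdh5 was at 17.2 and 15.9 CPM against 18.8 and 22.2 CPM. These 2 genes were chosen after their values were seen and do not stand for the list, in which 10 of 15 were lower. Pericyte and smooth muscle markers had a median of -0.36, from Vtn at -0.60 to Anpep at 0.48. The rest of the pathway had a median of -0.10, from Svep1 at -0.92 to Angptl4 at 1.85, tip cell and Notch genes one of -0.37, from Hey2 at -2.36 to Robo4 at 0.31, hypoxia response genes 0.23, from Egln3 at -1.09 to the glucose transporter Slc2a1 at 0.93, and endothelial transcription factors -0.14, from Lef1 at -0.98 to Ets2 at 0.75. None of these was past the threshold, and 3 higher and 2 lower, 0 and 3, 5 and 1, and 0 and 2 genes of the 4 lists had an unadjusted p under 0.05. Slc2a1 was at 149.9 and 179.9 CPM against 87.8 and 85.8 CPM. Blood cell markers, a list of haemoglobin and other red cell genes and of the neutrophil genes S100a8 and S100a9, summed to 127 and 439.7 CPM in the amygdala-labelled libraries and to 2.54 and 13.4 CPM in the cortex-labelled ones, with a median of 5.27, and their part in the receptor values was not tested. Microglia, astrocyte, neuron, oligodendrocyte and meningeal fibroblast markers had medians of 0.62, 0.01, 0.11, 0.51 and 0.69. Cortex, amygdala and striatum markers had medians of 0.69, 0.32 and 3.20, and choroid plexus, hippocampus and olfactory bulb markers -3.71, -3.24 and -5.18.

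Across all 8 libraries, with log2 CPM centred within each table, the members were compared by Pearson's r, given here as a description of 8 points that share tables and tissue labels. Kdr went with Flt1 (Pearson's r = 0.95) and Tie1 (r = 0.91), the ligand Pgf went with Tie1 (r = 0.91), Kdr (r = 0.85) and Flt1 (r = 0.84), and Angpt2 ran against Flt1 (r = -0.88). Vegfa went with none of its receptors, at r = 0.19 with Kdr and 0.10 with Flt1, and ran against Angpt1 at r = -0.66. Tek was nearer to Kdr (r = 0.75) than to its ligand Angpt1 (r = 0.63). Of 16947 genes, the pattern nearest to Angpt1 was that of Mlc1, an astrocyte membrane protein (r = 0.99), followed by Gbp2. Slco3a1 and Nrxn2 were nearest to Vegfa, Rfx2 and Gbf1 to Kdr, and Cachd1 and Slc44a5 to Nrp1, at r from 0.98 to 1.00. Papss2 and Trps1 were nearest to Tek, Supv3l1 and Odf2 to Flt1, Fzd6 and Tap2 to Tie1, Tmem130 and Tab1 to Pgf, Timm22 and 4930512B01Rik to Angpt2, and Noxred1 and Ppig to Apln, at r from 0.96 to 0.99. With 8 libraries, high coefficients are found for some of so many genes, and each names only the nearest profile.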

How the data were processed

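Brain RNA of 8 libraries was measured, in 4 groups of 2. The authors aligned reads with STAR 2.4.0 to GRCm38 (mm10) and counted them per gene with HTSeq 0.6.1, and the deposited tables hold raw read counts. The deposited FPKM values, scaled by the authors for gene length and depth, were used for levels between genes. The labels and the study's methods name different library kits, and the strand setting is not given in the sources used here. The authors' fold changes and p-values, and 8 other columns of per-sample values, were not used. All 28229 genes of the HDAC3 inhibitor and NaCl table matched the symbols of the other table by position.

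Counts were tested with edgeR 4.0.16 (R 4.3.3) by the quasi-likelihood test, with TMM normalisation, the default expression filter and Benjamini-Hochberg adjustment, separately in each comparison and with no covariate. The script was tested on simulated data. DESeq2 1.42.0, limma-voom (limma 3.58.1), other size factors, no filter, a fold limit, 1 fit of all 8 libraries, a replicate block and leaving out each library were alternatives. The 10 genes, lists and tests were chosen with earlier results of these data known. Named genes were the 10 members, up to 5 genes past the threshold in each list, or else the highest and lowest gene of the 6 vascular lists (for other lists without a call only counts and medians are given), and the 2 genes with the nearest profile to each member. Pecam1, Cdh5, Meis2 and Tshz1 were named outside this rule. Each library was counted as a separate sample, since replicates differed beyond counting error (chi-square per gene 4.60 to 75.5) and so were not one library listed again. That difference does not show separate animals, and in the HDAC3 inhibitor and NaCl groups the replicates carry different tissue labels. Depth was 15902013 to 21712033 counts a library.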

Additional observations from a re-analysis of the deposited data

Results flagged for a closer look

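For 3 of the 10 genes the HDAC3 inhibitor library was above its NaCl partner in one tissue label and below it in the other. The log2 ratio of the HDAC3 inhibitor over NaCl was -0.056 in the cortex-labelled pair and 0.089 in the amygdala-labelled pair for Angpt1, and -0.061 and 0.085 for Apln. For Angpt2 it was 0.47 and -0.057, on 26 to 67 counts a library. Of all genes, 90.2% and 70.8% had a ratio larger in size than that of Angpt1 in the cortex-labelled and amygdala-labelled pairs. The shares were 89.4% and 72.1% for Apln and 38.4% and 80.6% for Angpt2. How many of all genes turned between the labels was not counted. Each ratio rests on 1 library on either side, and the differences between the labels were not tested.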

How the results depend on the processing

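With 2 libraries a group, the calls of Vegfa and Aplnr after stroke depended on the processing, that of Aplnr being lost also in 1 fit of all 8 libraries (adjusted p = 0.483 in edgeR's quasi-likelihood test). Of the members, 0 were past the threshold as lower with limma-voom, with a log2 fold change of at least 1 required and in 1 fit of all 8 libraries (0 of all genes either way, against 521 and 103), and 1 was higher (Angpt1) with no filter on low counts, with DESeq2 and with the replicate block. Genes past the threshold were 1119 higher and 716 lower with no filter, and 188 lower with DESeq2, 16 with the fold limit and 228 with the block. Leaving out 1 library gave 339 to 1413 higher and 32 to 1278 lower genes, with 0 to 2 members higher (Angpt1 and Tek without PTS + RS replicate 2) and 0 to 1 lower. For the HDAC3 inhibitor against NaCl it gave 0 to 15 higher and 0 to 78 lower genes (15 and 78 without NaCl replicate 2) and 0 members. Between the labelled tissues, 13 genes were higher with no filter, 314 higher and 102 lower with DESeq2, and 182 and 45 in 1 fit of all 8 libraries, with 1 member lower (Kdr) in the last 2. Leaving out 1 library gave 0 to 2831 higher and 0 to 2552 lower genes, with 0 to 1 members higher and 0 to 4 lower. The most came without HDAC3 inhibitor replicate 1 (2831 and 2552) and without NaCl replicate 1 (1540 and 1025, with 3 members lower). A fit that leaves out 1 library has 1 library on one side, so its calls rest on the spread of the other side. The causes were not tested.

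Directions of genes turned as follows. After stroke Nrp1 was -0.0086 in 1 fit of all 8 libraries and -0.11 to 0.13 when 1 library was left out, Kdr -0.034 to 0.27, Tie1 -0.0060 to 0.34 and Angpt2 -0.35 to 0.062. For the HDAC3 inhibitor against NaCl the ranges were -0.079 to 0.12 for Angpt1, -0.88 to 1.24 for Kdr, -0.15 to 0.19 for Flt1, -1.23 to 0.078 for Pgf, -0.32 to 0.83 for Angpt2, -0.092 to 0.12 for Apln, -0.46 to 0.21 for Tie1, -0.14 to 0.99 for Vwf, -0.11 to 0.68 for Cspg4, -3.18 to 0.028 for Hey2, -0.036 to 1.29 for Ets2, -0.69 to 0.012 for Anpep and -0.10 to 0.15 for the members' median. Within the labelled pairs Angpt1 was -0.056 and Apln -0.061 (cortex), and Angpt2 -0.057 (amygdala). Between the labelled tissues Vegfa ran from -0.37 to 0.032, Hey2 from -3.20 to 0.012 and Egln3 from -1.90 to 1.00. Medians of vascular lists that turned when 1 library was left out were, after stroke, the rest of the pathway (-0.016 to 0.39) and pericyte and smooth muscle markers (-0.25 to 0.35), for the HDAC3 inhibitor against NaCl, endothelial markers (-0.054 to 0.090), tip cell and Notch (-0.35 to 0.011), hypoxia response (-0.18 to 0.27) and pericyte and smooth muscle markers (-0.11 to 0.41), and, between the labelled tissues, the rest of the pathway (-0.23 to 0.17). The hypoxia response median after stroke fell just below 0 in 1 fit of all 8 libraries. Medians of other lists also turned when 1 library was left out, after stroke those of meningeal fibroblast, blood cell, cortex, amygdala, striatum, hippocampus and olfactory bulb markers, for the HDAC3 inhibitor those of every other list except olfactory bulb, and between the labelled tissues those of astrocyte, choroid plexus, hippocampus and olfactory bulb markers.

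Replicate numbers pair libraries by no stated animal or day. Deviations of equally numbered libraries correlated at 0.035 in the first table and at 0.30 in the second, where the number is also the tissue label. With the replicate block, Vegfa after stroke kept its call (adjusted p = 0.0226 in edgeR's quasi-likelihood test), Angpt1 passed (0.0392), genes past the threshold were 687 higher and 228 lower, and the HDAC3 inhibitor comparison kept 0. Angpt2 and Pgf, with under 80 counts a library, allow no finer statement at this depth.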
